A study of Mus musculus with 12 samples.

Results

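The genes described here were the 174 abundant protein-coding genes of mouse chromosome 14 among the 15687 genes measured by RNA sequencing in 12 tumors. They were chosen by 3 criteria: annotation as protein coding on chromosome 14 (GRCm38), a mean of at least 1000 normalized counts over the 6 CTL tumors, and a symbol outside a set of named families that was left out. Of 545 chromosome 14 genes in the table, 495 were protein coding, 193 of these reached the level, and 19 belonged to the families left out (*Slc*, *Rpl*, *Rps*, *Cts*, *Psm*, *Anxa* and *Arhg* genes, *Lgals3* and *Bmp4*). The tumors were subcutaneous allografts of mTc11 cells, a mouse lung cancer line, grown with Matrigel in male C57BL6/J mice of 8 weeks and collected on day 24. The 6 CTL tumors (genotype label WT) came from cells with a control shRNA and the 6 *Filip1l*-knockdown tumors from cells with a *Filip1l* shRNA. According to the study's methods, the shRNA was delivered by lentivirus, and mixed puromycin-resistant clones were picked by immunoblotting. Which of the shRNA target sequences the sequenced tumors carried is not given in the sources used here. Each group came from transduced derivatives of the line, and the effect of the knockdown and any other difference between these derivatives cannot be told apart.

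A chromosome that is present in more copies in a cell line usually yields more RNA from most of its genes, whereas single genes can depart from the common level through their own regulation. Subunits of stable complexes are coded on many chromosomes, and surplus subunits are often degraded after translation, so a rise in the RNA of 1 subunit need not be matched by its partners. DNA copy number was not measured in these tumors, and "dosage" below means the RNA level of the chromosome's genes relative to CTL tumors. Chromosome 14 was proposed because its genes were shifted in this same comparison. The direction and size of that shift are therefore given as a description, and nothing is read from tests of it. Tests are read for the difference of a gene from its own chromosome and for partner genes on other chromosomes. They are also given for *Filip1l* and for cell type markers, some of which lie on chromosome 14.

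Each value was a read count divided by the size factor of its tumor (normalized count). CTL tumors had 17834745 to 29502069 reads on listed genes, *Filip1l*-knockdown tumors had 25460564 to 32419578, and 3 reads corresponded to 2.59 to 4.48 normalized counts. *Filip1l* on chromosome 16 ranged from 1983 to 2542 normalized counts in CTL tumors (median 2354) and from 1670.1 to 2184 in *Filip1l*-knockdown tumors (median 1935). Its groups overlapped, and its log2 fold change (± standard error, as for all log2 fold changes given here) was -0.26 ± 0.073, with an adjusted p of 0.00998 in limma. Besides chromosome 14, the medians of chromosomes 19 (-0.35) and 8 (-0.19) moved, and those of the other chromosomes lay between -0.040 and 0.047. As to tissue, the epithelial markers *Cdh1* (28492 ± 2707) and *Krt8* (56576 ± 6449) were abundant in CTL tumors, in normalized counts as mean ± SD over 6 tumors, and 5 of 6 epithelial markers were called higher in *Filip1l*-knockdown tumors (summed level 189079 to 352751, against 135400 to 176029 in CTL). The lung lineage markers *Nkx2-1* (17.2 ± 14.3) and *Sftpc* (9.76 ± 21.2) were low in CTL tumors, as was *Sftpb* (29.7 ± 33.0), which was called higher in *Filip1l*-knockdown tumors (304 ± 345). *Sftpd*, a surfactant protein gene that is itself among the 174, was abundant (1737 ± 712 in CTL). Of these 4 lung markers 1 was at 0 in a tumor. Host cell markers moved as well. All 5 neutrophil markers were called higher (summed level 742 to 1153, against 278 to 352 in CTL), as were all 5 endothelial markers (2966 to 4687, against 2308 to 2956) and 5 of 6 skeletal muscle markers (3977 to 76011, against 1857 to 9722). Of 7 macrophage markers *Cd68* alone was called higher, and of 6 fibroblast markers *Col1a1* and *Col1a2* were called lower. The summed level of 4 leukocyte markers was 4953 to 10539 (CTL 5214 to 7412) and that of 5 T cell markers 735 to 1431 (CTL 660.0 to 1777). In whole tumors, fewer cells of a type and less RNA per cell cannot be told apart, and the part of these cell types in the results for chromosome 14 was not tested.

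The RNA of abundant chromosome 14 genes was higher in *Filip1l*-knockdown tumors along the whole chromosome and in every tumor of the group. Of the 174 genes, 149 were higher and 25 lower, and the median log2 fold change was 0.36, a 1.29-fold higher level. The middle 50% of the genes lay between 0.20 and 0.55. The 278 other chromosome 14 genes whose mean over all tumors reached 50 normalized counts had a median of 0.41, and the 5205 abundant protein-coding genes of other chromosomes, chosen with the same level and the same families left out, had a median of -0.040 and were higher in 43.0% of cases. The spread around the median was the same in both sets of abundant genes: the middle 50% spanned 0.357 log2 units on chromosome 14 and 0.357 elsewhere.

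Within single tumors, the median deviation of the 174 genes from their CTL means averaged 0.00030 ± 0.070 (SD, n = 6) for CTL and 0.36 ± 0.059 (SD, n = 6) for *Filip1l*-knockdown tumors. CTL tumors lay between -0.079 and 0.13 and *Filip1l*-knockdown tumors between 0.26 and 0.42, so the groups did not overlap. CTL tumors were not alike: replicate 2 had 146 of 174 genes above the CTL mean (83.9%), whereas replicate 3 had 52 (29.9%). Between 82.8% and 87.4% of the genes were above the CTL mean in each *Filip1l*-knockdown tumor. *Filip1l*-knockdown replicate 1 had the lowest median, 0.26, although its other chromosome 14 genes stood at 0.39.

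**Figure D1:**
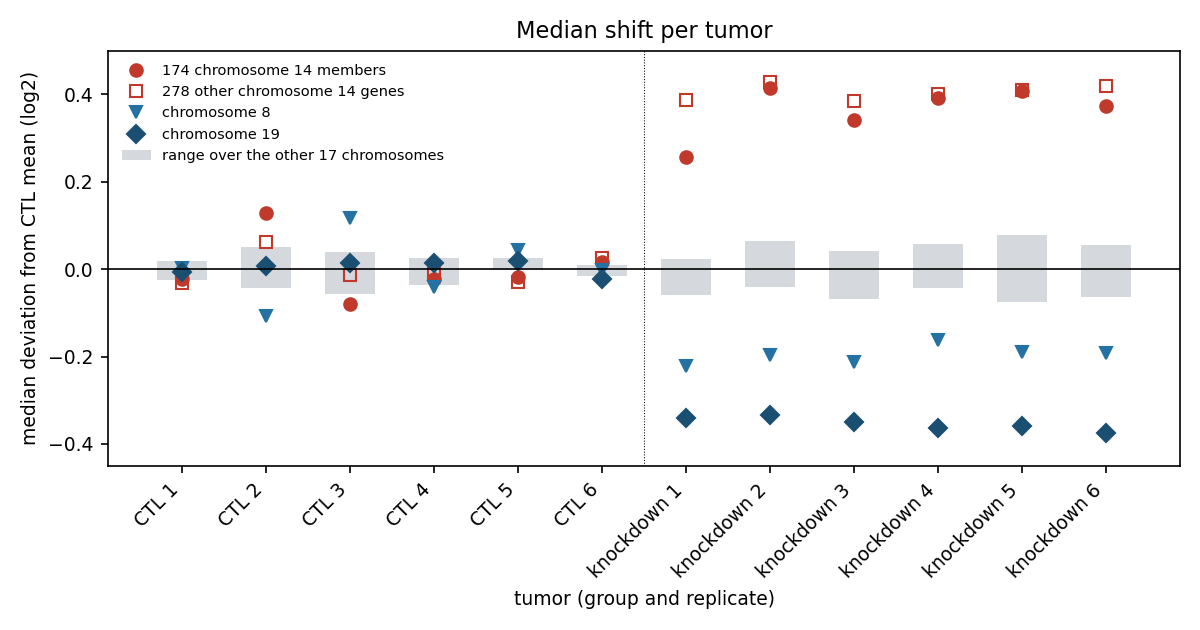
Median deviation from the CTL mean (log2, y axis) in each tumor (x axis) for the 174 members (red circles), the other 278 chromosome 14 genes (open squares), chromosome 8 (triangles) and chromosome 19 (diamonds), with grey bars for the range over the remaining 17 chromosomes. The members lie between 0.26 and 0.42 in all 6 *Filip1l*-knockdown tumors and between -0.079 and 0.13 in CTL tumors.

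Counts of genes describe the same shift. In 94 of the 174 genes (54.0%) every *Filip1l*-knockdown tumor was above every CTL tumor, against 10.6% of all genes, and in 6 (3.45%) every *Filip1l*-knockdown tumor was below, against 10.9%. In the limma fit over all genes, 131 (75.3%) passed an adjusted p of 0.05 as higher, against 21.1% of all genes, and 11 (6.32%) as lower, against 20.7%. Few of the changes were large: with the additional threshold of the study, a log2 fold change beyond 1, 6 genes (3.45%) were higher and 1 (0.575%) lower, against 6.20% and 3.97% of all genes. The genes were selected on this contrast, and nothing is read from these counts.

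The shift was not limited to a segment. In windows of 10 Mb along chromosome 14, the median log2 fold change of the 452 genes whose mean reached 50 lay between 0.34 and 0.62 in each of the 13 windows. The highest value, 0.62, belonged to the window nearest the centromere, with 11 genes, of which 3 were members. The window with the most genes, from 50 to 60 Mb, had 122 genes and a median of 0.41, and its 41 members had a median of 0.40. A window of 4 genes between 80 and 90 Mb held no member and had a median of 0.36.

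**Figure D2:**
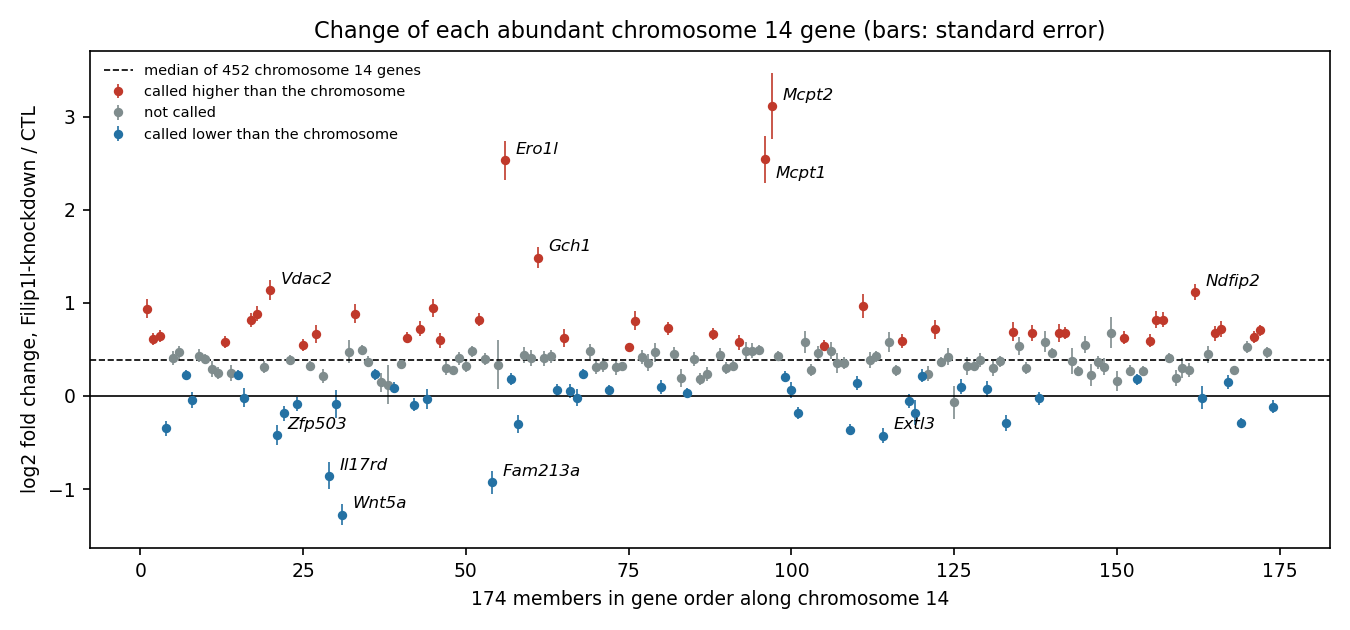
Log2 fold change (y axis, bars show the standard error) of the 174 members in gene order along chromosome 14 (x axis), coloured by whether the gene was called higher or lower than its chromosome. Most genes lie near the dashed chromosome median of 0.39, with single genes far above it, such as *Mcpt2* at 3.11, or far below it, such as *Wnt5a* at -1.27, at separate places.

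The most abundant members included genes that lay near the chromosome median, above it and near a log2 fold change of 0. Clusterin (*Clu*), a secreted chaperone, was the most abundant, with 307897 to 365898 normalized counts in CTL tumors (median 338965) and 218800.0 to 392648 in *Filip1l*-knockdown tumors (median 298532), and its groups overlapped at a log2 fold change of -0.18 ± 0.13. *Tpt1*, which codes for the translationally controlled tumor protein, ranged from 74452 to 101778 normalized counts in CTL tumors (median 86355) and from 80694 to 118002 in *Filip1l*-knockdown tumors (median 105169), with overlap. *Itm2b*, a type II membrane protein of the secretory pathway, ranged from 29199 to 37602 normalized counts in CTL tumors (median 31345) and from 36922 to 58517 in *Filip1l*-knockdown tumors (median 50521). Both *Tpt1* (0.22 ± 0.12) and *Itm2b* (0.58 ± 0.11) were not called against the chromosome median (adjusted p = 0.292 and 0.162 in the limma fit relative to the chromosome). Per kilobase of exon, the CTL level was 98078 normalized counts for *Clu*, 36505 for *Tpt1* and 11919.6 for *Itm2b*, and the median of the 174 genes was 464.

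Transketolase (*Tkt*), an enzyme of the pentose phosphate pathway, ranged from 12975 to 16247 normalized counts in CTL tumors (median 14766) and from 20898 to 31797 in *Filip1l*-knockdown tumors (median 27757), with no overlap and a log2 fold change of 0.88 ± 0.10. Glutamate dehydrogenase (*Glud1*), which feeds glutamate into the citric acid cycle, sat close to the chromosome's shift, with 11038 to 12236 normalized counts in CTL tumors (median 11229), 13119 to 14666 in *Filip1l*-knockdown tumors (median 13915) and a log2 fold change of 0.28 ± 0.048. *Tsc22d1*, a transcriptional regulator induced by TGFβ, had a log2 fold change of 0.31 ± 0.094, likewise close to the chromosome median.

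Other abundant genes had log2 fold changes close to 0. The scavenger receptor *Scara3* ranged from 14513 to 17173 normalized counts in CTL tumors (median 15785) and from 13042 to 17265 in *Filip1l*-knockdown tumors (median 15149). *Mmp14*, a membrane-anchored metalloproteinase that cleaves collagen, ranged from 11614 to 15428 normalized counts in CTL tumors (median 13863) and from 13422 to 16990.5 in *Filip1l*-knockdown tumors (median 14390.1). *Nisch*, which codes for the integrin-binding protein nischarin, had a log2 fold change of 0.091 ± 0.064, against -0.055 ± 0.076 for *Scara3* and 0.092 ± 0.074 for *Mmp14*. The groups overlapped for all 3 genes.

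To find genes that departed from the chromosome, the median deviation of a chromosome was subtracted from its genes in each tumor, and groups were compared with limma over 15629 genes (adjusted p under 0.05). The choice of the members did not use this difference, although they were proposed with results of these data known. Of the 174 genes, 42 (24.1%) were called higher than their chromosome and 43 (24.7%) lower, whereas 89 were not called. Over all genes, 21.0% were called higher and 18.7% lower than their own chromosome, so the shares for chromosome 14 were near those of the genome. Of the 25 members with a log2 fold change below 0, 24 were called lower than the chromosome, and the remaining 19 genes called lower had log2 fold changes above 0. The exception among the 25 was *Stc1*, a secreted glycoprotein hormone, at -0.068 ± 0.18 (named after its values were seen). In all 42 genes called higher, every *Filip1l*-knockdown tumor was above every CTL tumor.

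The largest positive departures were those of a pair of clustered protease genes. *Mcpt2* (chr14:56042041-56044642, + strand) codes for a protease of mucosal mast cells and ranged from 889 to 2151 normalized counts in CTL tumors (median 1268) and from 3526 to 21718 in *Filip1l*-knockdown tumors (median 13451). Nearby *Mcpt1* (chr14:56017971-56020384, + strand), coding for a related chymase, ranged from 1434 to 3191 normalized counts in CTL tumors (median 1699.5) and from 5404 to 17427 in *Filip1l*-knockdown tumors (median 12415). The log2 fold changes were 3.11 ± 0.35 and 2.54 ± 0.25, and relative to the chromosome 2.73 ± 0.35 and 2.16 ± 0.24 (limma adjusted p = 3.16e-05 and 9.72e-06). *Filip1l*-knockdown replicate 1 was the lowest of its group for both genes. *Mcpt4*, another gene of this cluster, below the abundance level and named after its values were seen, had 175 to 649 normalized counts in CTL tumors (median 283) and 599 to 4635 in *Filip1l*-knockdown tumors (median 2156), and its log2 fold change was 2.61 ± 0.43. These genes are close copies. The study's methods describe unique gene hit counts, so reads that fit several of these genes may have been left out.

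The other genes of mast cells moved in both directions or were not called. Of a list of 10 mast cell genes, put together after the values were seen, 2 were called higher (*Hdc* and *Mcpt4*), 1 lower (*Tpsab1*) and 7 were not called, shares below those of all genes (21.1% and 20.7%). The list's summed level was 1590 to 5948 normalized counts in *Filip1l*-knockdown tumors, against 764 to 3220 in CTL, and none of its genes was at 0 in any tumor. Without *Mcpt4*, the other 9 genes summed to 670 to 1313 (mean 970.2) in *Filip1l*-knockdown tumors, against 562 to 2571 (mean 1259.8) in CTL. The carboxypeptidase *Cpa3* had 161 ± 127 normalized counts (SD, n = 6) in CTL tumors, against 114 ± 46.4 with the knockdown. The receptor *Kit* had 175 ± 44.5 and 186 ± 60.0, and the IgE receptor subunit *Ms4a2* had 11.4 ± 6.22 and 8.97 ± 2.24. The tryptase *Tpsab1* fell from 105 ± 46.2 to 32.7 ± 6.77, and histidine decarboxylase (*Hdc*), which mast cells and other leukocytes use to make histamine, rose from 43.5 ± 8.09 to 141 ± 21.7. The part of mast cells in the change of *Mcpt1* and *Mcpt2* was not tested.

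*Ero1l* showed the next departure. It codes for the oxidase that regenerates protein disulfide isomerase in the endoplasmic reticulum, and it ranged from 2289 to 4493 normalized counts in CTL tumors (median 3368) and from 10837 to 27327 in *Filip1l*-knockdown tumors (median 21704), with no overlap (chr14:45283087-45318771, - strand). Its log2 fold change was 2.53 ± 0.20, or 2.15 ± 0.20 relative to the chromosome (limma adjusted p = 1.91e-06). *Gch1*, the first enzyme of tetrahydrobiopterin synthesis, ranged from 1121 to 1409.8 normalized counts in CTL tumors (median 1248) and from 2552 to 4239 in *Filip1l*-knockdown tumors (median 3702), and the relative change was 1.11 ± 0.10 (limma adjusted p = 1.36e-06). *Vdac2*, a channel of the outer mitochondrial membrane, ranged from 7499 to 9435 normalized counts in CTL tumors (median 8439) and from 13949 to 22390.3 in *Filip1l*-knockdown tumors (median 20094), and the relative change was 0.76 ± 0.10 (limma adjusted p = 6.6e-05). The groups were separate for all 3 genes.

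Smaller departures upward were found in metabolic and membrane genes. *Ndfip2*, a membrane adaptor of Nedd4 family ubiquitin ligases, ranged from 1774 to 2272 normalized counts in CTL tumors (median 2151) and from 3626 to 5169 in *Filip1l*-knockdown tumors (median 4652), a relative change of 0.74 ± 0.075. *Fdft1*, the squalene synthase at the entry to sterol synthesis, ranged from 2576 to 3259 normalized counts in CTL tumors (median 3036) and from 4014 to 7381 in *Filip1l*-knockdown tumors (median 6016), a relative change of 0.59 ± 0.12. *Ncoa4*, the receptor that carries ferritin to autophagy, had a relative change of 0.56 ± 0.082, and *Adk*, the adenosine kinase, of 0.50 ± 0.070. Adjusted p-values of the chromosome-relative limma fit were 4.61e-06 for *Ndfip2*, 0.00128 for *Fdft1*, 9.67e-05 for *Ncoa4* and 6.74e-05 for *Adk*. In each of these 4 genes the groups were separate. Beyond the 10 genes with the largest departures upward, 32 genes called higher, *Tkt* (0.50) among them, had relative changes between 0.14 and 0.50, with a median of 0.29.

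**Figure D3:**
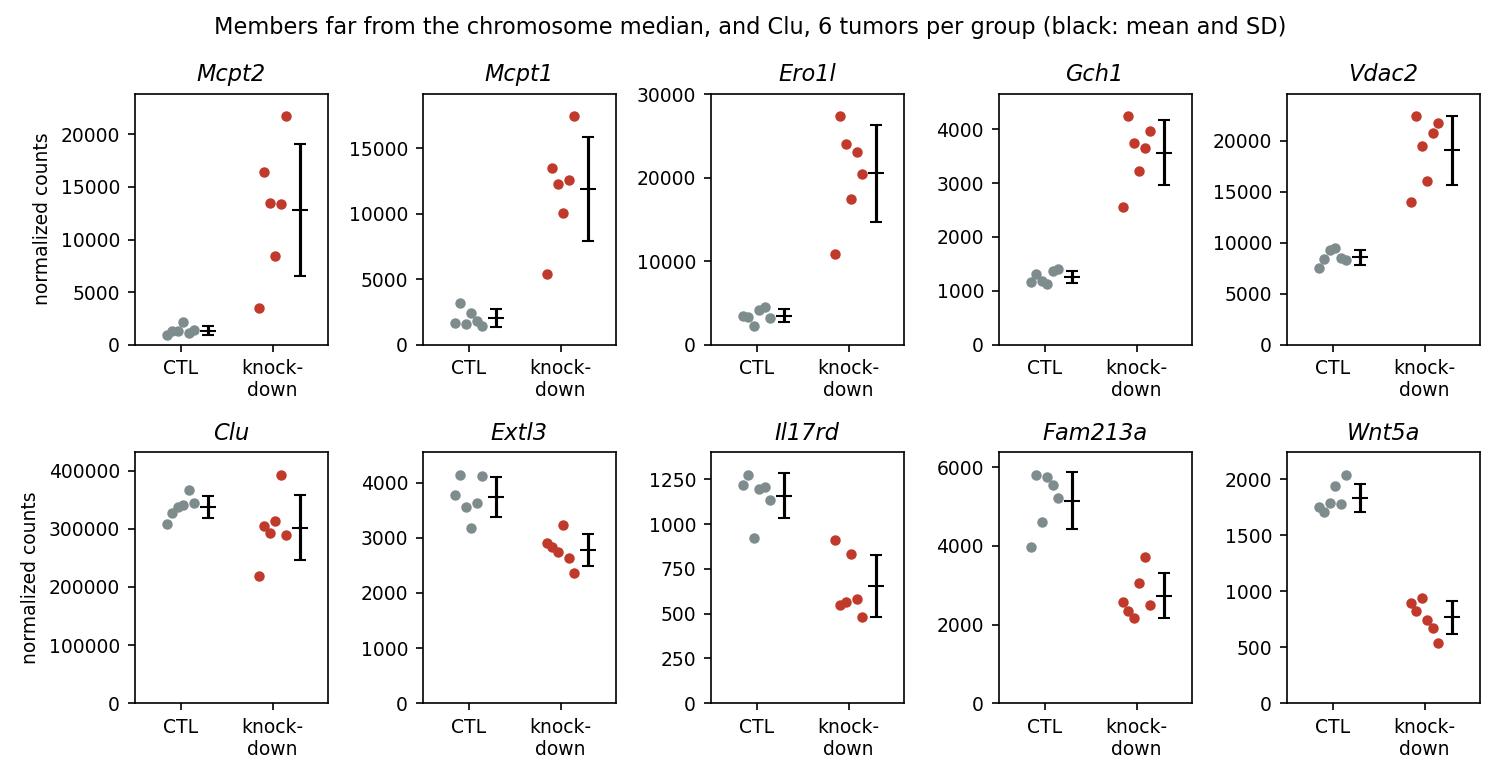
Normalized counts (y axes, each starting at 0) in the 6 CTL and 6 *Filip1l*-knockdown tumors (x axes) for members far from the chromosome median and for *Clu*, with the mean and SD in black. The groups are separate in every panel except those of *Clu* and *Extl3*, with *Mcpt2*, *Mcpt1*, *Ero1l*, *Gch1* and *Vdac2* higher and *Il17rd*, *Fam213a* and *Wnt5a* lower in *Filip1l*-knockdown tumors.

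At the other end, *Wnt5a*, the ligand of noncanonical Wnt signalling, had the lowest change of all members. It lies at chr14:28504750-28527448, + strand, and it ranged from 1709 to 2038 normalized counts in CTL tumors (median 1781) and from 541 to 939 in *Filip1l*-knockdown tumors (median 782), with no overlap. The log2 fold change was -1.27 ± 0.11, a level of 0.413 times that of CTL tumors, and the change relative to the chromosome was -1.66 ± 0.12 (limma adjusted p = 2.81e-07). *Fam213a*, which codes for a peroxiredoxin-like protein, ranged from 3968 to 5807 normalized counts in CTL tumors (median 5382) and from 2165 to 3728 in *Filip1l*-knockdown tumors (median 2532), with a relative change of -1.31 ± 0.12 (limma adjusted p = 2.09e-06). *Il17rd*, an inhibitor of fibroblast growth factor signalling, ranged from 921 to 1275 normalized counts in CTL tumors (median 1202) and from 481 to 911 in *Filip1l*-knockdown tumors (median 572), with a relative change of -1.24 ± 0.15 (limma adjusted p = 2.14e-05). All *Filip1l*-knockdown tumors were below all CTL tumors for these 3 genes, by a narrow margin for *Il17rd*.

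The other 7 genes with the largest negative departures fell less. *Zfp503*, a zinc finger repressor of transcription, ranged from 969.7 to 1533 normalized counts in CTL tumors (median 1079) and from 761 to 962 in *Filip1l*-knockdown tumors (median 845), and its groups were separate. *Spata13*, an exchange factor for Rac and Cdc42 GTPases, ranged from 2786 to 3615 normalized counts in CTL tumors (median 3233) and from 2318 to 2679 in *Filip1l*-knockdown tumors (median 2488), also separate. *Farp1*, another exchange factor with a FERM domain, was separate too, with 5657 to 6151 normalized counts in CTL tumors (median 5872) and 4568 to 5179 in *Filip1l*-knockdown tumors (median 4718). The relative changes were -0.80 ± 0.11, -0.74 ± 0.059 and -0.67 ± 0.044. *Extl3*, a glycosyltransferase of heparan sulfate synthesis, had a relative change of -0.81 ± 0.076 and groups that overlapped slightly, with 3179 to 4142 normalized counts in CTL tumors (median 3709.7) and 2365 to 3237 in *Filip1l*-knockdown tumors (median 2782). The receptor tyrosine phosphatase *Ptprg* had a relative change of -0.73 ± 0.078, the kindlin-2 gene *Fermt2*, which codes for an activator of integrins, of -0.68 ± 0.10, and the procollagen C-proteinase *Bmp1* of -0.67 ± 0.091. The groups of these last 3 genes overlapped in normalized counts. Among the 10 genes the adjusted p of the chromosome-relative limma fit was highest for *Fermt2* (0.000113), *Zfp503* (7.28e-05) and *Bmp1* (5.96e-05). The other 33 genes called lower had relative changes between -0.57 and -0.14, with a median of -0.32.

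Several of the genes below the chromosome act in signalling and at the cell surface. *Clu* also belonged to them, with a relative change of -0.56 ± 0.12 (limma adjusted p = 0.00222), as did *Scara3* (-0.44), *Mmp14* (-0.29) and *Nisch* (-0.29). *Lats2*, a kinase of the Hippo pathway named after its values were seen, had a relative change of -0.56 ± 0.066, and *Spry2*, an inhibitor of receptor tyrosine kinase signalling also named after its values were seen, of -0.40 ± 0.11. *Lcp1* and *Stab1*, which mark leukocytes and the macrophage and endothelial compartment and were likewise named after their values were seen, were not called, with log2 fold changes of 0.37 ± 0.14 and 0.12 ± 0.21.

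The sequence before the start of a gene is shown for *Mcpt1* and *Gch1*, which rose far beyond the chromosome, for *Ndfip2*, which rose less, and for *Il17rd*, which fell below it. Each run is the 250 bases upstream of the annotated start, 5′ to 3′ on the strand of the gene, from RefSeq (GRCm38.p6). Capitals mark matches on either strand to TATAAA (the TATA box), GGGCGG (the GC box) and ACGTG (the core of E boxes and hypoxia response elements). None of the motifs contains another. Such a match is a description of the letters only. The runs lie at chr14:56017714-56017963 on the + strand (*Mcpt1*), chr14:47189414-47189663 on the - strand (*Gch1*), chr14:105258373-105258622 on the + strand (*Ndfip2*) and chr14:27038751-27039000 on the + strand (*Il17rd*).
Mcpt1: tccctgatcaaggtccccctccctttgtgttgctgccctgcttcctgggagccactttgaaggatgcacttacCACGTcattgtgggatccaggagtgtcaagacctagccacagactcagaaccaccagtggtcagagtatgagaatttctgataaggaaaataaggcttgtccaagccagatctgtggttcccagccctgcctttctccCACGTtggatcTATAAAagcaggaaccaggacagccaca
Gch1: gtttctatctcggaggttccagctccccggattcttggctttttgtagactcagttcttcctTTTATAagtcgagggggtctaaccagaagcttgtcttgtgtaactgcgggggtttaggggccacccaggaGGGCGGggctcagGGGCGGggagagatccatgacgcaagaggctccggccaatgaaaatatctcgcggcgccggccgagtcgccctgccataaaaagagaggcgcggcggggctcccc
Ndfip2: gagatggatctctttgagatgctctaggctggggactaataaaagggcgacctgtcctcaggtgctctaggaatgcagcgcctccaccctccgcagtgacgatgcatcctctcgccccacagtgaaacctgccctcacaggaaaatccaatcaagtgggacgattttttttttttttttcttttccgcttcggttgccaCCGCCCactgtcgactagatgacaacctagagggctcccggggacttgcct
Il17rd: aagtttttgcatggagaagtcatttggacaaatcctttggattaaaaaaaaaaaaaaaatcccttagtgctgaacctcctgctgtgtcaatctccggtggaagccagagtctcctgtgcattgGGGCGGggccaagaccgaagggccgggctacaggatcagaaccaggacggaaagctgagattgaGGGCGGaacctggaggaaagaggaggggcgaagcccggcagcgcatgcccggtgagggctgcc

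The promoter of *Mcpt1* held 2 CpG dinucleotides at a GC content of 51.6%, against 17 at 59.2% for *Gch1*, 11 at 53.2% for *Ndfip2* and 10 at 54.4% for *Il17rd*. Promoters were found for 126 of the 174 genes and for 10 of the 20 genes with the largest departures. *Mcpt2*, *Ero1l*, *Vdac2*, *Wnt5a*, *Fam213a* and *Extl3* had no entry. Where a gene had several starts, a match in any of them was counted. The GC box was present in 24 of 31 genes called higher than the chromosome (77.4%), 43 of 66 not called (65.2%) and 20 of 29 called lower (69.0%), against 35.4% of all 27025 genes with a promoter. The TATA box was present in 3, 7 and 2 of these genes, or 9.68%, 10.6% and 6.90%, against 14.3% of all genes. ACGTG was present in 15 genes called higher (48.4%), 21 not called (31.8%) and 6 called lower (20.7%), against 18.5% of all genes. The median exon length was 5243 bases for genes called higher, 5353 for genes not called and 6971 for genes called lower, and the median CTL level per kilobase was 520, 468 and 348 normalized counts. The set of all genes with a promoter was not limited to abundant genes. Its promoters had a median of 6 CpG dinucleotides, against 18 for the members, so the 2 sets are unlike. No test was made of these differences.

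By role, all 8 named groups had a median above 0, as follows from the choice of a raised chromosome. Of all 174 genes, 85.6% were higher, 24.1% were called higher than the chromosome and 24.7% lower. Nothing is read from the counts of higher genes by role, and the roles of 53 genes were assigned after values were seen. Among 30 genes of the secretory pathway and membrane traffic, 28 were higher, with a median log2 fold change of 0.57, and 14 were called higher and 3 lower than the chromosome. Besides *Ero1l*, they included *Dad1*, a subunit of oligosaccharyltransferase (0.81 ± 0.10), *Ap3m1*, the medium chain of the AP-3 adaptor (0.82 ± 0.076), and the small GTPase *Arf4* (0.67 ± 0.093, named after its values were seen). Among 22 genes of mitochondria and metabolism, 21 were higher, with a median of 0.48, and 10 were called higher and 2 lower than the chromosome. The exception was *Fam213a*.

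Genes of chromatin and transcription formed the largest group, and 28 of 32 were higher, with a median of 0.31 and with 21 of 32 not called against the chromosome. All 19 genes of RNA processing and nuclear transport were higher, with a median of 0.28, ranging from 0.035 (*Acin1*) to 0.72 (*Mbnl2*, both named after their values were seen), and 13 were not called. All 10 genes of the cell cycle and ubiquitin system were higher (median 0.36). Of 15 genes of adhesion and the cytoskeleton, 11 were higher (median 0.37), and the lowest was *Fermt2* at -0.30.

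The lowest medians belonged to signalling and to secreted proteins. Among 26 genes of signalling and receptors, 17 were higher and 9 lower, with a median of 0.20, and 11 were called lower and 3 higher than the chromosome. Among 11 secreted, matrix and cell surface genes, 8 were higher, with a median of 0.12, and 5 were called lower and 3 higher. That group held both *Mcpt2* at 3.11 and *Bmp1* at -0.29. A remaining 9 genes outside these roles had a median of 0.40. For comparison, over the 452 chromosome 14 genes whose mean reached 50 the median was 0.39, with 115 called higher and 98 called lower than the chromosome.

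**Figure D4:**
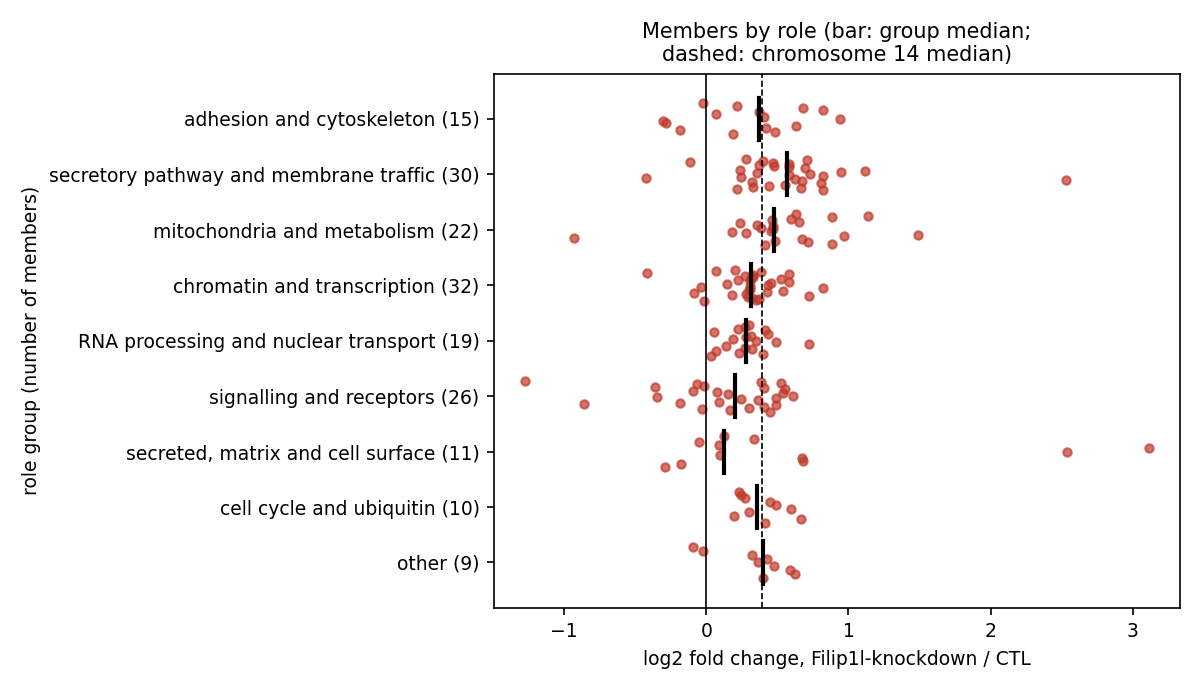
Log2 fold change (x axis) of each member (circles) in 9 role groups (y axis, number of members in parentheses), with the median of each group as a black bar and the chromosome 14 median of 0.39 as a dashed line. The medians run from 0.12 for secreted, matrix and cell surface genes to 0.57 for the secretory pathway.

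Whether complexes moved as a whole was examined for 20 complexes with at least 1 subunit among the 174 genes and at least 1 measured subunit coded on another chromosome. Of the 97 partner genes, 18 (18.6%) were called higher in *Filip1l*-knockdown tumors in the limma fit over all genes and 27 (27.8%) lower, against 21.1% and 20.7% of all genes. Their median log2 fold change was -0.035, against 0.0078 for all genes. Chromosomes 8 and 19, whose medians were below 0, coded for 9 of the partners, and 7 of these were called lower. Relative to their own chromosome, 3 of the 9 were called lower (*Smc3*, *Ppp2cb* and *Tusc3*), and of all 97 partners 17 (17.5%) were called higher and 24 (24.7%) lower. Among the 88 partners on the remaining chromosomes, 18 (20.5%) were called higher and 20 (22.7%) lower, with a median of -0.0074, so their counts were near those of all genes. In 7 further complexes, listed after the values were seen, 8 of 28 partners were called higher and 5 lower. Their members, all higher, included *Timm23* of the TIM23 translocase (0.60, 2 of 8 partners called higher), *Cog3* of the COG tether (0.55, 3 of 7 higher and 1 lower), *Prmt5* of the methylosome (0.45, 1 of 3 lower) and *Nedd8* (0.49, 1 of 4 higher and 2 lower).

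**Figure D5:**
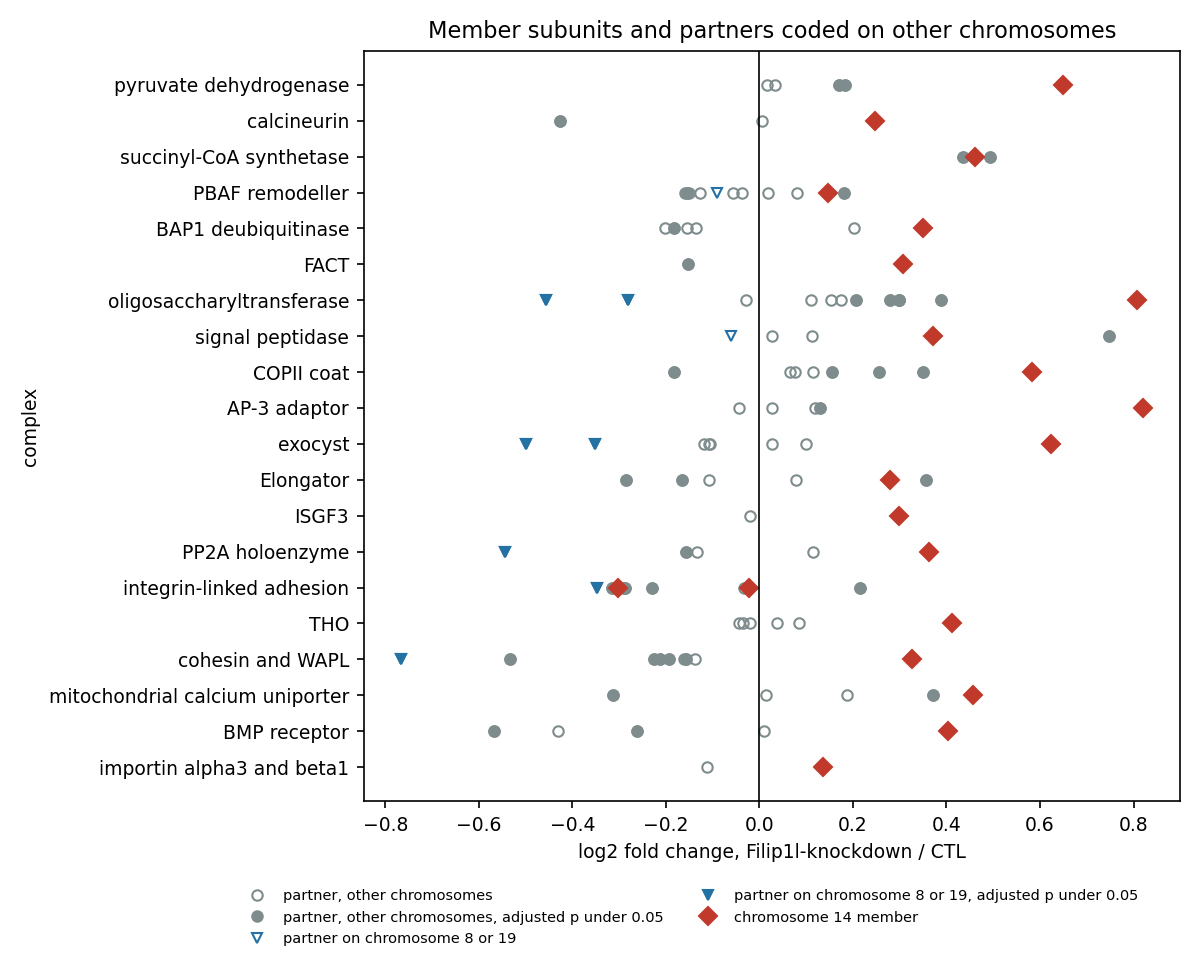
Log2 fold change (x axis) of member subunits (red diamonds) and partners (grey circles, or blue triangles for partners on chromosome 8 or 19, filled where the adjusted p was under 0.05) in each of 20 complexes (y axis). Most diamonds lie to the right of their partners, which follows from the choice of members on a raised chromosome. The member and the partners of succinyl-CoA synthetase lie together near 0.46. The members of integrin-linked adhesion lie at -0.30 and -0.022. Points of nearly equal value hide each other.

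Succinyl-CoA synthetase, which makes nucleoside triphosphate in the citric acid cycle, was a complex whose measured subunits all rose by a similar amount. *Sucla2*, the ATP-forming beta subunit and a member, ranged from 1661 to 1964 normalized counts in CTL tumors (median 1814) and from 2271 to 2731 in *Filip1l*-knockdown tumors (median 2529), a log2 fold change of 0.46 ± 0.057. *Suclg1*, the alpha subunit on chromosome 6, ranged from 1694 to 1861 normalized counts in CTL tumors (median 1714) and from 1916 to 2777 in *Filip1l*-knockdown tumors (median 2341), a change of 0.44 ± 0.078 (limma adjusted p = 0.000468). *Suclg2*, the GTP-forming beta subunit on the same chromosome, had a change of 0.49 ± 0.088 (limma adjusted p = 0.000457). The groups were separate for all 3 genes.

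Pyruvate dehydrogenase, which links glycolysis to the citric acid cycle, showed a different pattern. *Pdhb*, its beta subunit and a member, ranged from 1787 to 2103 normalized counts in CTL tumors (median 1914) and from 2595 to 3242 in *Filip1l*-knockdown tumors (median 3075), a change of 0.65 ± 0.064. Its 4 partners lay between 0.016 and 0.18, and 2 of them were called higher. In the mitochondrial calcium uniporter, the gatekeeper *Micu2* had a change of 0.46 ± 0.082, whereas the regulator *Smdt1* was higher at 0.37 ± 0.12 (limma adjusted p = 0.02) and the inhibitory subunit *Mcub* lower at -0.31 ± 0.10 (limma adjusted p = 0.0241). Without 1 tumor at a time, *Mcub* missed the threshold in 3 of 12 fits.

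Some partners were also called in complexes of glycosylation and signal peptide removal in the endoplasmic reticulum. In oligosaccharyltransferase, which attaches glycans to new proteins, *Dad1* ranged from 2094 to 2808 normalized counts in CTL tumors (median 2466) and from 3238 to 4899 in *Filip1l*-knockdown tumors (median 4358), with no overlap. Of 11 partners, 5 were called higher, including *Rpn1* (0.39 ± 0.074), *Magt1* (0.30 ± 0.069), *Stt3b* (0.30 ± 0.057) and *Rpn2* (0.28 ± 0.056). The 2 called lower were *Tusc3* on chromosome 8 (-0.46 ± 0.056) and *Tmem258* on chromosome 19 (-0.28 ± 0.10), and *Tmem258* missed the threshold in 5 of 12 such fits. Relative to their own chromosomes, *Tusc3* had -0.26 ± 0.064 (limma adjusted p = 0.00548), and *Tmem258* turned to 0.077 ± 0.10 (limma adjusted p = 0.569). In signal peptidase, which removes signal sequences, *Spcs1* had a change of 0.37 ± 0.062 and 1 of 4 partners was called, the catalytic subunit *Sec11c*, from 1066 to 1591 normalized counts in CTL tumors (median 1294) to 1796 to 2563 in *Filip1l*-knockdown tumors (median 2143) (log2 fold change 0.75 ± 0.11, limma adjusted p = 9.43e-05).

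In coats and tethers of vesicles, members stood above most partners. Members were chosen on a raised chromosome, so nothing is read from this position. *Sec24c*, a cargo-binding subunit of the COPII coat, had a change of 0.58 ± 0.065, and of 7 partners 3 were called higher, *Sec23b* most (0.35 ± 0.052), and 1 lower. *Ap3m1* at 0.82 stood above its 4 AP-3 partners, which lay between -0.044 and 0.13. *Exoc5*, a subunit of the exocyst, had a change of 0.62 ± 0.10, and 2 of 7 partners were called lower, *Exoc6* on chromosome 19 (-0.50 ± 0.063) and *Exoc8* on chromosome 8 (-0.35 ± 0.084). Neither was called relative to its own chromosome, at -0.14 ± 0.063 and -0.15 ± 0.081 (limma adjusted p = 0.0927 and 0.149). The difference of *Exoc5* from its own chromosome (limma adjusted p = 0.0415) missed the threshold in 8 of 12 such fits.

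Among partners of nuclear members, lower calls were found chiefly in cohesin, and most of the other partners were not called. *Wapl*, which releases cohesin from chromatin, had a change of 0.33 ± 0.071, whereas 6 of 8 cohesin partners were called lower, the core subunit *Smc3* on chromosome 19 from 4048 to 4603 normalized counts in CTL tumors (median 4319) to 2329 to 2853 in *Filip1l*-knockdown tumors (median 2451) (-0.77 ± 0.056, limma adjusted p = 2.53e-07), or -0.41 ± 0.055 relative to chromosome 19 (limma adjusted p = 5.06e-05). The cohesin regulator *Pds5b* on chromosome 5 was lower at -0.53 ± 0.11. Of the 6 cohesin partners called lower, *Rad21* (-0.10) and *Nipbl* (-0.17) were not called relative to their own chromosome. *Supt16*, a subunit of the histone chaperone FACT, had a change of 0.31 ± 0.078, against -0.15 for its partner *Ssrp1*. *Thoc7* of the THO complex, which couples transcription to export of RNA, had a change of 0.41 ± 0.074 while its 5 partners lay between -0.043 and 0.084. *Pbrm1* of the PBAF remodeller (0.15 ± 0.10) and *Bap1*, the deubiquitinase (0.35 ± 0.051), had partners between -0.16 and 0.18 and between -0.20 and 0.20. In Elongator, which modifies transfer RNA, *Elp3* (0.28 ± 0.060) had 1 partner called higher, *Elp5* (0.36 ± 0.094), and 2 lower. *Kpna3*, an importin, had a change of 0.14 ± 0.074, and its partner *Kpnb1* one of -0.11.

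Signalling complexes showed partners moving against the member. *Bmpr1a*, a type I receptor for bone morphogenetic proteins, had a change of 0.40 ± 0.066, whereas another type I receptor, *Acvr1* on chromosome 2, fell from 1966 to 2585 normalized counts in CTL tumors (median 2227) to 1235 to 1595 in *Filip1l*-knockdown tumors (median 1518), a change of -0.57 ± 0.078 (limma adjusted p = 5.31e-05). The calcineurin catalytic subunit *Ppp3cb* had a change of 0.25 ± 0.067 and the alternative catalytic subunit *Ppp3ca* on chromosome 3 one of -0.43 ± 0.078 (limma adjusted p = 0.00055). *Ppp2r2a*, a regulatory subunit of protein phosphatase 2A, had a change of 0.36 ± 0.053, and the catalytic subunit *Ppp2cb* on chromosome 8 one of -0.54 ± 0.048, or -0.35 ± 0.054 relative to that chromosome (limma adjusted p = 0.000192). In the interferon factor ISGF3, *Irf9* had a change of 0.30 ± 0.066 and *Stat2* of -0.020 ± 0.069.

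In integrin-linked adhesion, 1 of 2 members and most partners were lower. *Fermt2* ranged from 1567 to 2032 normalized counts in CTL tumors (median 1782) and from 1161 to 1841 in *Filip1l*-knockdown tumors (median 1409), and vinculin (*Vcl*), which ties integrin complexes to actin, ranged from 4382 to 5935 normalized counts in CTL tumors (median 5201) and from 4042 to 6274 in *Filip1l*-knockdown tumors (median 5086). Their log2 fold changes were -0.30 ± 0.10 and -0.022 ± 0.10, and the groups overlapped for both genes. Of 7 partners, 5 were called lower: *Itgb1* on chromosome 8 (-0.35 ± 0.058), *Lims1* (-0.32 ± 0.072), *Tln1* (-0.29 ± 0.050), *Ilk* (-0.29 ± 0.083) and *Rsu1* (-0.23), whereas *Pxn* was called higher (0.22) and *Parva* was not called (-0.033). *Itgb1*, the beta chain of most matrix-binding integrins, fell from 30271 to 34881 normalized counts in CTL tumors (median 33733) to 24376 to 26845 in *Filip1l*-knockdown tumors (median 26048) with no overlap. Relative to chromosome 8 it had -0.15 ± 0.069 and was not called (limma adjusted p = 0.105).

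Close to the level that defined the members, log2 fold changes varied from gene to gene. Just above it, *Kat6b* had a CTL mean of 1010.1 normalized counts and a log2 fold change of 0.31, *Lrch1* 1011 and 0.68, and *Fam208a* 1012 and -0.085. Just below it, *Tmem260* had 997 and 0.42, *Lpar6* 990.0 and 0.21, and *Dph3* 989.6 and 0.17. The 19 abundant genes in the families left out had a median of 0.61, with 17 higher and 2 lower. With these genes included, the median over 193 genes was 0.39. The 278 other chromosome 14 genes whose mean reached 50 were more spread than the members. Their middle 50% spanned 0.535 log2 units, against 0.357. The level used CTL tumors only, and with a level over all 12 tumors 174 of 196 genes were higher, with a median of 0.39.

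Of the 174 genes, 73 shared exon sequence with another annotated gene, 18 of them on the same strand, and whether reads were counted by strand is not given in the sources used here. Values of such genes are uncertain. They included *Ap3m1* and *Vcl*, which share exon sequence on opposite strands, *Irf9* and *Rnf31* on the same strand, *Fdft1* with *Ctsb*, *Vdac2* with *Comtd1*, *Exoc5* with *Ap5m1*, and *Wnt5a* with *Gm2670*.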

How the data were processed

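RNA of 6 CTL and 6 *Filip1l*-knockdown tumors was sequenced by the authors. The submitters' processing notes name bcl2fastq 2.20, Trimmomatic 0.36, STAR 2.5.2b, Subread 1.5.2 and DESeq2 on mm10. The deposited values are counts divided by size factors, a normalized signal not corrected for length. Each tumor's values were whole multiples of 1 read (100% within 0.001 of a read), and the recovered reads were used in an alternative test with edgeR 4.0.16, which called 3262 genes higher and 3364 lower. In 3 tumors the step lay within 1% of 1. Floors of 3 reads cover counting error only.

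Annotation was GENCODE vM21 (GRCm38), which held 15655 of 15687 identifiers. Groups were compared with limma 3.58.1 on log2(normalized count + 1), with a variance trend and Benjamini-Hochberg adjustment, so fold changes of low genes are understated. A filter at a mean of 5 removed 0 genes. Chromosome medians used genes with a mean of at least 50. In simulated data of the chromosome-relative comparison with 15629 genes, 37 of 50 genes changed by 1 were called, and 9 of 15429 unchanged genes. The simulation shifted chromosome 14 alone and changed far fewer genes than the 3275 called higher and 2927 called lower in the tumors. Its rates therefore do not carry over to the calls in the tumors. No source states that replicates came from separate cultures, and p-values measure the spread between tumors.

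The members and lists were chosen with earlier results of these data known. The roles of 53 genes, 7 complexes and the mast cell list were assigned after values were seen. Genes were named if among the 10 most abundant members, the 5 highest or lowest changes, the 10 largest calls in each direction relative to the chromosome, a complex (values for the 25 called partners with the largest changes), or the 3 on either side of the level. The others are said to be named after their values were seen, except overlapping genes and complex partners given by a value without a test. Some genes that the rule named are not reported here. Alternatives were other pseudocounts, filters, scalings, levels and families, limma without trend, the replicate block, a chromosome median without members and each tumor left out, and, chosen after seeing the data, a relative change beyond 0.5, partner calls relative to their own chromosome, edgeR and DESeq2 1.42.0 on recovered reads.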

Additional observations from a re-analysis of the deposited data

Results flagged for a closer look

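In 11 of 152 groups of 6 values (both groups of each named gene and of the members' median), 1 tumor lay far from the other 5, with a gap above Dixon's critical value. Chance flags about 1 in 20 groups. Among CTL tumors, these were, in normalized counts, *Il17rd* in CTL replicate 3 (921), *Adk* in CTL replicate 2 (2112), *Exoc5* in CTL replicate 3 (1619), *Ppp3ca* in CTL replicate 3 (2088) and *Mcub* in CTL replicate 6 (317). Among *Filip1l*-knockdown tumors, these were, in normalized counts, *Ncoa4* in replicate 1 (2782), *Supt16* in replicate 4 (3579.7), *Ppp2r2a* in replicate 1 (3384), *Acvr1* in replicate 6 (1235), *Smdt1* in replicate 1 (1575) and *Exoc8* in replicate 4 (811). For *Ncoa4*, *Ppp2r2a* and *Smdt1* the tumor was *Filip1l*-knockdown replicate 1, which also had the lowest median of the members in its group (0.26). Without that tumor, the median log2 fold change of the members was 0.38.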

How the results depend on the processing

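The median log2 fold change of the members, 0.36, lay between 0.35 and 0.38 when 1 tumor was left out and between 0.32 and 0.39 in 14 other fits or gene sets, of which a level of 1000 over all 12 tumors gave 174 of 196 genes higher. The counts of members called lower (43) and higher (42) than their chromosome lay between 37 and 48 and between 38 and 45 with 1 tumor left out. Requiring a relative change beyond 0.5, chosen after seeing the data, left 13 lower and 11 higher. Partner calls (18 higher, 27 lower) lay between 14 and 22 and between 22 and 30 with 1 tumor left out, and between 12 and 19 and between 23 and 33 in 12 other fits, 1 of them, chosen after seeing the data, relative to each partner's own chromosome. With edgeR on recovered reads 43 of the 43 lower and 42 of the 42 higher calls of members were shared. edgeR and DESeq2 on recovered reads each called 131 members higher, the count of the limma fit. With the replicate block, 40 members were called lower and 40 higher than their chromosome and 14 partners higher. Tumors that share a number were not paired by the labels, and their deviations correlated between -0.269 and 0.0990, with no CTL tumor closest to its own number.

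Of the 33 named members called against the chromosome, 31 kept their call in 12 fits with 1 tumor left out and 11 others, leaving aside the minimum change of 0.5, and 19 of 24 named partners kept theirs in 12 and 12. The exceptions among members were *Exoc5* (adjusted p from 0.0312 to 0.0888) and *Fam208a*, and among partners *Mcub*, *Tmem258* and, relative to their own chromosome, *Exoc6*, *Exoc8*, *Itgb1* and again *Tmem258*, which turned to 0.077. Signs turned for uncalled members near 0 relative to the chromosome: with 1 tumor left out, *Spcs1* ran from -0.031 to 0.0069, *Ppp2r2a* from -0.028 to 0.0065 and *Bmpr1a* from -0.0037 to 0.045, and with the chromosome median taken over non-members *Bmpr1a* was -0.0023. The cause was not tested. The smallest relative change of a member that was called was 0.14 in size.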
